A study of Mus musculus with 6 samples.

Results

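The p53 feedback and growth arrest genes are 10 genes, Trp53 with the feedback inhibitor Mdm2 and 8 genes known as p53 targets that slow the cell cycle or growth: Cdkn1a, Ccng1, Psrc1, Plk2, Btg2, Sesn1, Sesn2 and Trp53inp1. They were chosen by name and found by their symbols in a table of 15803 genes, and each of the 10 was listed once. All 10 were among the 12155 genes tested, those that averaged 1 CPM or more (a gene's reads scaled to a library total of 1000000). Poly(A) RNA had been taken from the growth plate cartilage of E18.5 mouse embryos. The WT group was Hnrnpk fl/fl and the CKO group was Col2a1-Cre;Hnrnpk fl/fl, both carrying loxP sites around internal exons of Hnrnpk, an RNA-binding protein. Cre was driven by Col2a1, which is active in chondrocytes, so cells that never use that promoter keep both Hnrnpk copies. There were 3 libraries per group, with 1153871 to 1454094 reads each, and nothing in the labels says whether the replicates were separate animals, so p-values measure the spread between these libraries.

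The protein p53 is a transcription factor that is held at a low level because Mdm2, itself made from a p53 target gene, marks it for destruction. Stress that frees p53 from Mdm2 raises p53 mainly as protein, and the target genes then slow division (Cdkn1a, Btg2), act back on p53 (Mdm2, Ccng1, Trp53inp1) or restrain the growth kinase complex mTORC1 (Sesn1, Sesn2). In cartilage the growth of long bones depends on chondrocytes dividing in columns and then leaving the cell cycle as they enlarge.

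Hnrnpk itself stood at 842, 955 and 944 CPM for WT 1, 2 and 3, against 759, 949.9 and 780.0 CPM in CKO 1, 2 and 3. The ranges overlapped, the log2 fold change (CKO minus WT, here and below, on the log2(CPM + 1) scale) was -0.14 (SE 0.15, limma adjusted p = 0.622), and the value counts the whole gene, with the exons outside the loxP sites. It therefore does not check the labels, and WT and CKO below mean the libraries so labelled. Compared with the other libraries of its own group, CKO 2 had the lowest median correlation of log2(CPM + 1) over genes (0.923), followed by WT 3 (0.938), against 0.943 to 0.951 in the other 4 libraries. Reads on 4 Y-linked genes summed to 109, 144, 91.5 and 104 CPM in WT 2, WT 3, CKO 1 and CKO 3, but to 0.725 CPM (1 read) in WT 1 and 0 in CKO 2.

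Of the 10 genes, 7 were higher in CKO by limma at an adjusted p under 0.05 (Mdm2, Cdkn1a, Ccng1, Psrc1, Plk2, Btg2 and Trp53inp1), where 3.18% of all genes tested were. None was lower, where 2.6% of all genes tested were (1 of the 10 was lower at an unadjusted p under 0.05, and 0 by edgeR or by DESeq2). The 7 genes rose by 1.63 to 2.42 on the log2 scale, or 3.10 to 5.37 times, while Trp53, Sesn1 and Sesn2 did not pass the test. The median log2 fold change was 1.80 over the 10 genes and 0.01 over all genes tested. By a log2 fold change beyond 1 in either direction with an unadjusted limma p under 0.05, 7 of the 10 were higher and 1, Sesn1, was lower (0 without CKO 2 or without WT 1), against 5.3% and 5.1% of all genes tested. Every CKO library was above every WT library for 8 of the 10 genes, against 14.5% of all genes tested, and every WT library was above every CKO library for 1, against 13.2%. The number of genes called in the whole table, 703, moved to 1218 without CKO 2, 258 without CKO 1, 230 without CKO 3, 217 without WT 1 and 208 without WT 2.

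**Figure D1:**
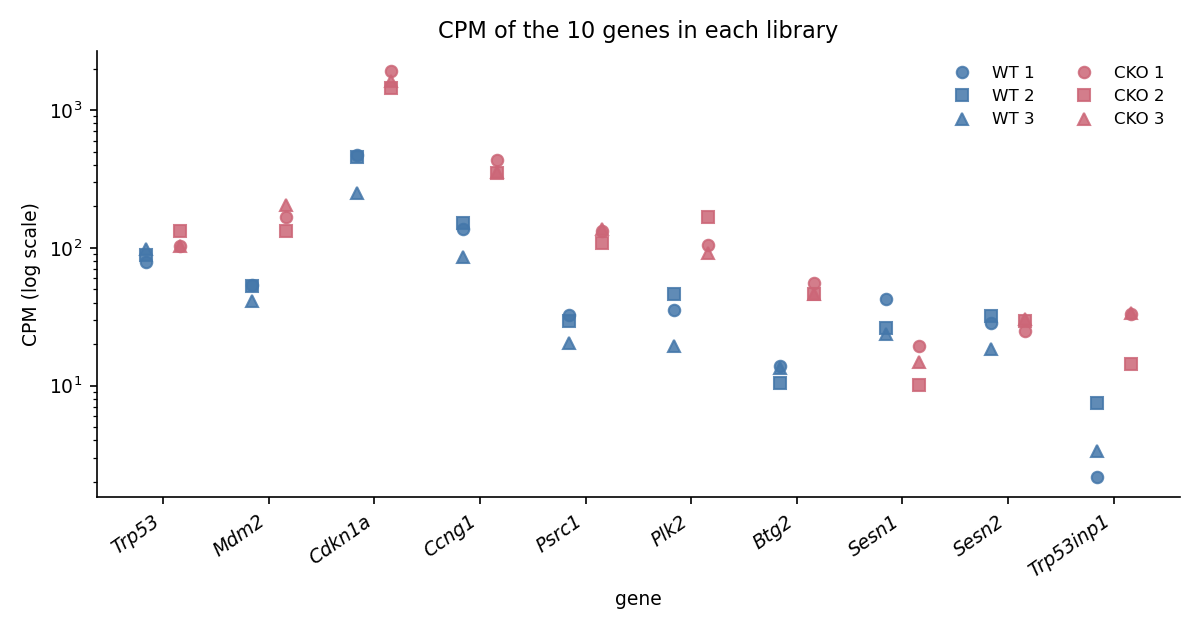
CPM on a log axis for the 10 genes, with 1 point per library (blue WT, red CKO, shape the replicate number). The red points lie above the blue ones for 8 genes, below them for Sesn1 and among them for Sesn2.

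Trp53, which encodes p53, stood at 78.3, 89.3 and 98.0 CPM for WT 1, 2 and 3, against 102, 133 and 103 CPM in CKO 1, 2 and 3. The groups did not overlap, but the lowest CKO library was only 1.05 times the highest WT library, and CKO 2 was the one that stood out. The log2 fold change was 0.34 (SE 0.18, 95% interval -0.07 to 0.75, limma adjusted p = 0.319), and 0.22 without CKO 2 (adjusted p = 0.441). A processed copy of the gene, Trp53-ps, matches it at 94.96% identity over 1170 bases and is not a row of the table, so reads shared with it could have been lost or moved. The other 9 genes had no copy of at least 300 bases at 90% identity.

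Mdm2, the ubiquitin ligase that limits p53, stood at 53.6, 52.5 and 41.4 CPM across WT, against 168, 133 and 206 CPM in CKO 1, 2 and 3. The lowest CKO library, CKO 2, was 2.48 times the highest WT library. Its log2 fold change was 1.75 (SE 0.21, limma adjusted p = 0.00196), higher in 3 of 3 CKO libraries. Counted within a library, there were 0.685, 0.588 and 0.422 Mdm2 reads for each Trp53 read in WT 1, 2 and 3, and 1.64, 1 and 2 in CKO 1, 2 and 3. The Mdm2 reads thus numbered fewer than the Trp53 reads in each WT library, and as many or more in each CKO library.

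Ccng1 encodes cyclin G1, which brings a phosphatase to Mdm2 and so acts back on p53. It stood at 136, 152 and 86.2 CPM across WT, against 433, 349 and 357 CPM across CKO. WT 3 was the low library in WT, and the groups did not overlap. Its log2 fold change of 1.63 (SE 0.22, limma adjusted p = 0.00314) was the smallest of the 7 that passed.

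Trp53inp1, a small nuclear protein that helps p53 drive arrest and death genes, was the rarest of the 10 in WT. It stood at 2.17, 7.5 and 3.38 CPM in WT, from 3, 10 and 4 reads, and at 33.0, 14.4 and 33.8 CPM across CKO, from 48, 20 and 39 reads. CKO 2 was the low CKO library and still 1.92 times the highest WT library. On the log2 scale the gene rose by 2.42 (SE 0.46, limma adjusted p = 0.0146). This call was lost without CKO 1 (adjusted p = 0.0696), without CKO 3 (0.0807) and without WT 1 (0.0718), with the gene still higher in each fit.

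Cdkn1a encodes p21, which binds and blocks the cyclin-dependent kinases that drive entry into S phase. It stood at 475, 455 and 251 CPM for WT 1, 2 and 3, against 1918, 1452 and 1635 CPM in CKO 1, 2 and 3, from 297 to 2789 reads. WT 3 was low within WT, CKO 2 was the lowest in CKO, and the groups lay 3.06 times apart at their nearest. The log2 fold change was 2.13 (SE 0.24, limma adjusted p = 0.00130). An unnamed transcript on the opposite strand shares 273 bases of Cdkn1a exon, 7.68% of its exon length, and is not listed in the table.

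Psrc1 encodes a microtubule-binding protein of the mitotic spindle. It stood at 32.6, 29.3 and 20.3 CPM across WT, against 133, 108 and 136 CPM across CKO. WT 3 and CKO 2 were the low libraries, as they were for Cdkn1a, and the groups did not overlap. Its log2 fold change was 2.18 (SE 0.23, limma adjusted p = 9.50e-04), with the smallest adjusted p of the 10 genes and place 13 by p among the 6180 genes tested that were higher in CKO.

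Plk2, a polo-like kinase that takes part in centriole duplication, stood at 35.5, 46.5 and 19.4 CPM across WT, against 105, 168 and 91.9 CPM across CKO. CKO 2 was here the high library. The log2 fold change was 1.85 (SE 0.33, limma adjusted p = 0.0111), and the call was just lost without WT 1 (log2 fold change 1.93, adjusted p = 0.0516). Btg2, which slows division through the deadenylation of mRNA, stood at 13.8, 10.5 and 13.5 CPM across WT, against 55.7, 46.2 and 45.9 CPM across CKO. Both groups were narrow and lay 3.34 times apart at their nearest. The log2 fold change of Btg2 was 1.89 (SE 0.24, limma adjusted p = 0.00263).

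The sestrins are stress-induced proteins that hold back mTORC1 through the GATOR complexes. Sesn1, the sestrin best known as a p53 target, lay the other way from the 7 genes, at 42.8, 26.3 and 23.7 CPM for WT 1, 2 and 3, against 19.3, 10.1 and 14.7 CPM in CKO 1, 2 and 3. WT 1 was high within WT, CKO 2 was low within CKO, and the lowest WT library was 1.23 times the highest CKO library. The log2 fold change was -1.02 (SE 0.32, 95% interval -1.73 to -0.30), and it did not pass the adjusted threshold (limma adjusted p = 0.0965), though its unadjusted p was under 0.05. Without CKO 2 the value was -0.79 and without WT 1 it was -0.77, and in both fits Sesn1 no longer met the fold criterion. Sesn2 stood at 28.3, 32.3 and 18.6 CPM across WT, against 24.8, 29.6 and 30.3 CPM across CKO. The groups overlapped, and the log2 fold change was 0.12 (SE 0.26, 95% interval -0.46 to 0.71, limma adjusted p = 0.832). Without WT 3 it turned to -0.10 (adjusted p = 0.861).

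**Figure D2:**
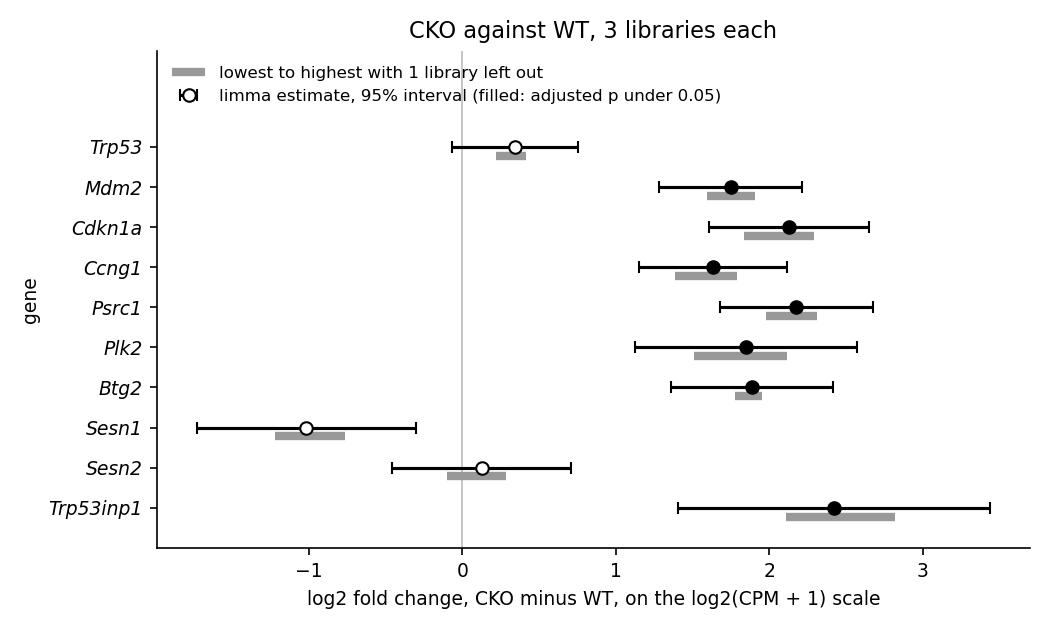
Log2 fold changes (CKO minus WT) of the 10 genes with 95% intervals, filled where the limma adjusted p was under 0.05, and in grey the lowest to highest value with 1 library left out. The 7 filled points lie between 1.63 and 2.42, and only the grey bar of Sesn2 spans 0.

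The 10 genes are protein-coding and lie apart on GRCm38, with Ccng1 and Trp53 on chromosome 11, Mdm2 and Sesn1 on 10, Sesn2 and Trp53inp1 on 4, and Btg2, Psrc1, Plk2 and Cdkn1a on 1, 3, 13 and 17. Per kilobase of exon, which allows levels of different genes to be compared, the order in WT was Cdkn1a (111 CPM per kilobase), Ccng1 (35.5), Trp53 (21.9), Mdm2 (9.68), Psrc1 (8.14), Sesn1 (7.76), Sesn2 (7.59), Plk2 (7.53), Btg2 (4.59) and Trp53inp1 (0.672). In WT the first 4 did not overlap with one another in CPM per kilobase, neighbours from Mdm2 down to Btg2 did overlap, and Trp53inp1 lay below Btg2 in each library. In CKO, Cdkn1a (469.6 CPM per kilobase) and Ccng1 (108) again came first without overlap. Then followed Psrc1 (37.4), Mdm2 (33.3), Trp53 (27.9) and Plk2 (27.1), each overlapping with the next, then Btg2 (18.0), Sesn2 (8.12), Trp53inp1 (4.18) and Sesn1 (3.69). In CPM per kilobase Trp53 lay above Mdm2 and Psrc1 in each WT library, and Sesn1 moved from sixth place in WT to last in CKO, where it overlapped with Trp53inp1.

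WT 3 was the lowest WT library for 7 of the 10 and for 5 of the 7 genes that passed, where it was the lowest for 33.6% of all genes tested. CKO 2 was the lowest CKO library for 6 of the 10 and for 5 of the 7 that passed, where it was the lowest for 37.6% of all genes tested. The 4 libraries with Y-linked reads differed between CKO and WT, in mean log2(CPM + 1), by 1.67 (Plk2) to 2.5 (Trp53inp1) for the 7 genes, and WT 1 and CKO 2, the pair without them, by 1.29 (Mdm2) to 2.28 (Trp53inp1). For Sesn1 these differences were -0.54 and -1.98, and for Trp53 they were 0.13 and 0.76. With the presence of Y-linked reads as a term in the limma model, a fit added after seeing the data, the same 7 genes passed.

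**Figure D3:**
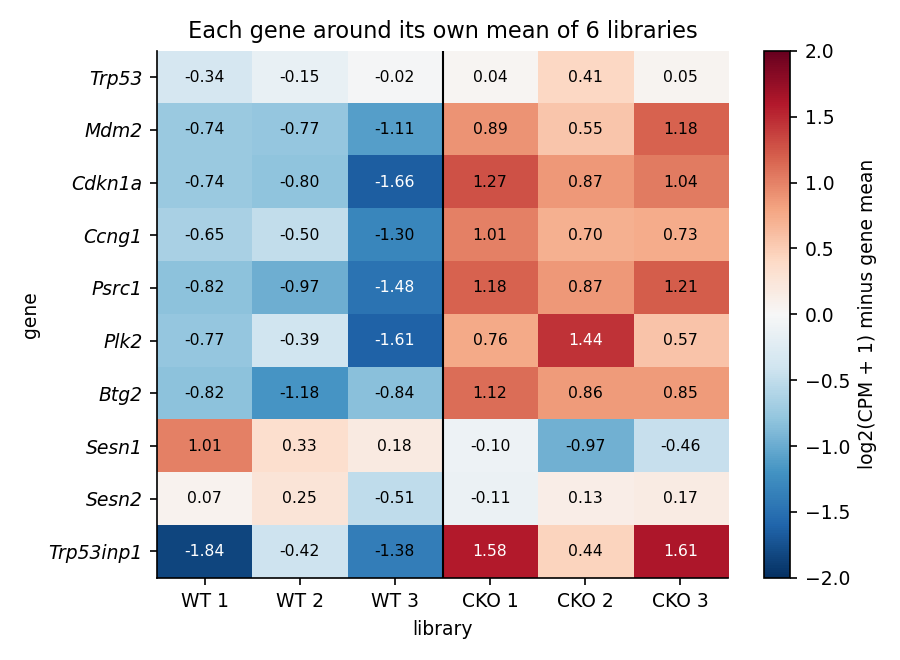
Log2(CPM + 1) of each of the 10 genes (rows) minus its own mean, in each of the 6 libraries (columns, WT left of the line). The 7 genes that passed are below their mean in each WT library and above it in each CKO library, with WT 3 lowest for 5 of them, and Sesn1 is below its mean in each CKO library.

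The genes whose profile over the 6 libraries lay nearest to that of Cdkn1a, among the 6827 genes that averaged 10 CPM or more, were Psrc1, Anxa3, Eda2r, Tnfrsf10b and Hmox1, with Euclidean distances between mean-centred log2(CPM + 1) of 0.320 to 0.568. By the same measure Ccng1 was in place 9, Mdm2 18, Btg2 32, Plk2 40, Trp53inp1 141, Trp53 1869, Sesn2 2179 and Sesn1 6258. The distance contains the difference between the groups, so a gene with another fold change than Cdkn1a lies far from it by construction, and the places are no evidence apart from the fold changes. Eda2r, Tnfrsf10b, Trp53inp1 and, below, Gla were under 10 CPM in each WT library and entered this comparison only through their CKO values. For Mdm2 the nearest were Anxa1, Ugp2, Ftl1, Gla and Ephx1, at 0.317 to 0.428. Hmox1, heme oxygenase, had a log2 fold change of 2.23 (limma adjusted p = 6.54e-04) and Ftl1, the ferritin light chain, 1.70 (limma adjusted p = 0.00279).

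The promoters of 9 of the 10 genes were matched by symbol in RefSeq, from 250 bases before to 50 after each start, on build GRCm38.p6, and searched for the p53 decamer, the 10-base unit that occurs in pairs in p53 response elements and reads the same on both strands. Only exact matches to RRRCWWGYYY were counted, where R is A or G, W is A or T and Y is C or T. Of all 32851 promoters 8.36% held at least 1 decamer, and 24 (0.0731%) held a pair no more than 13 bases apart. The upstream promoter of Cdkn1a, chr17:29090729-29091028 on the + strand, held such a pair, at positions -73 and -51 from the start with 12 bases between them, while its other promoter held none. The 10 bases directly after the decamer at -51 miss the pattern only in their leading base, so they were not counted. A closer pair that allows 1 mismatch was thus passed over. Among the promoters of genes tested, 5 of 11783 held a pair, those of Ifitm2, Pard3, Dnajc7, Cdkn1a and Itm2a, and of these 5 genes only Cdkn1a passed the limma test. Single exact decamers lay in the promoters of Trp53, Mdm2 and Ccng1 and in 1 of the 2 promoters of Sesn1, and none in those of Psrc1, Plk2, Btg2 and Sesn2. Decamers with a mismatch were not sought, so a count of none does not mean that p53 sites are absent. The best-known p53 sites of Mdm2 lie in its first intron, outside this window. The stretches shown are those with decamers, in capitals, from the genes that act on p53 and from Cdkn1a, read 5′ to 3′ at chr17:29090891-29090952 (+) for Cdkn1a, chr11:69580274-69580303 (+) for Trp53, chr10:117710925-117710954 (-) for Mdm2 and chr11:40755452-40755481 (-) for Ccng1. A match is a description of the letters and does not show that p53 binds there.
Cdkn1a: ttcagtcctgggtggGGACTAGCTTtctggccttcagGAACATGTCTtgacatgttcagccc
Trp53: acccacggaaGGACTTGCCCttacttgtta
Mdm2: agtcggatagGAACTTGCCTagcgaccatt
Ccng1: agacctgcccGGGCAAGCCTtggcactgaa

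Cdkn1a has a pair of paralogs, Cdkn1b (p27) and Cdkn1c (p57), and together they are the Cip/Kip inhibitors of cyclin-dependent kinases. Cdkn1b stood at 13.05, 14.3 and 19.4 CPM across WT, against 1.38, 2.89 and 3.47 CPM across CKO, which gave a log2 fold change of -2.24 (SE 0.39, limma adjusted p = 0.0102). Cdkn1c, the inhibitor best known from enlarging chondrocytes, stood at 175, 181 and 149 CPM across WT, against 71.5, 33.9 and 65.0 CPM across CKO, which gave a log2 fold change of -1.61 (SE 0.27, limma adjusted p = 0.00788). Both fell while Cdkn1a rose, with no overlap between the groups. In CKO the values of Cdkn1b lay near the 2.06 to 2.60 CPM that 3 reads stand for there, so its fold change rests on few reads. The call of Cdkn1b was lost without WT 2 (adjusted p = 0.0550), and that of Cdkn1c without WT 1 (0.0524) or WT 2 (0.0570). Cdkn1a made up 71.6%, 70.0% and 59.9% of the Cip/Kip reads in WT 1, 2 and 3 and 96.3%, 97.5% and 96.0% in CKO 1, 2 and 3. Wilson 95% intervals ran from 55.5% to 74.4% over the WT libraries and from 95.02% to 98.1% over the CKO libraries, and cover counting error only. The difference of the means was 29.5 percentage points (exact two-sided permutation test, p = 0.1, the smallest that 3 against 3 can give).

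Sesn3, the third sestrin, had 13, 12 and 8 reads in WT and 0, 4 and 1 reads in CKO. It was called lower by limma (adjusted p = 0.0355), and the call held in only 4 of 12 alternatives, with adjusted p from 0.0646 to 0.140 without WT 1, WT 2, WT 3, CKO 1 or CKO 3. Sesn1 made up 53.2%, 38.9% and 48.3% of the sestrin reads in WT 1, 2 and 3 and 43.8%, 23.7% and 32.1% in CKO 1, 2 and 3. The groups overlapped, and the difference of the means, -13.6 percentage points, gave p = 0.2 (exact two-sided permutation test). Without CKO 2 the difference was -8.86 points. Of the 14 paralogs of the 10 genes that were tested, 4 were lower (Cdkn1c, Cdkn1b, Sesn3 and Ccni, a relative of Ccng1) and none was higher by limma. At an unadjusted p under 0.05, 6 were lower and 0 higher, and by edgeR (which tested 9 of them, without Sesn3) and by DESeq2 (14) 3 were lower and 0 higher. Both tools leave some genes out, and the number after a tool's name, here and below, is how many genes of the list it tested. Their median log2 fold change was -0.49, and -0.86 without CKO 2. The count of lower paralogs was 2 without CKO 1 or WT 3, 1 without WT 1 and 0 without WT 2, counts that, like those for the lists below, were added after seeing the data. Ccni had a log2 fold change of -1.50 (SE 0.31, limma adjusted p = 0.0216), which missed the threshold without WT 1, WT 2, WT 3 or CKO 1 (adjusted p 0.0633 to 0.0964).

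**Figure D4:**
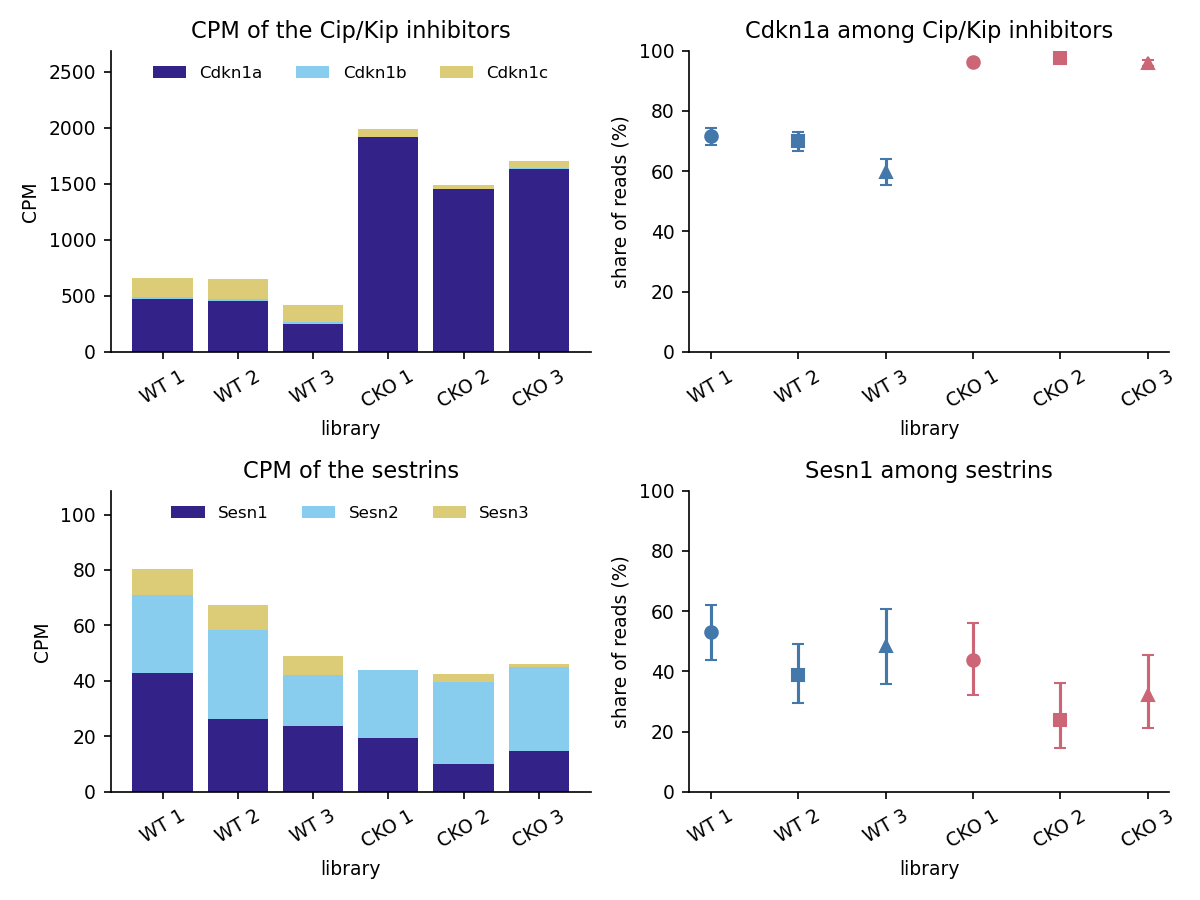
Left, stacked CPM of the Cip/Kip inhibitors and of the sestrins in each library. Right, the share of Cdkn1a among Cip/Kip reads and of Sesn1 among sestrin reads, in percent with Wilson 95% intervals, blue WT and red CKO. The share of Cdkn1a is at most 71.6% in WT and at least 96.0% in CKO, while the shares of Sesn1 overlap.

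Beyond the 10 genes, other genes known as p53 targets were read from lists. Of 14 tested targets that act in survival and death, 6 were higher and none lower by limma, and the list's median log2 fold change was 0.95 (0 lower also at an unadjusted p under 0.05, by edgeR, 10 tested, and by DESeq2, 14 tested). Perp, a membrane protein of cell junctions and apoptosis, had 8.45 to 18.8 CPM across WT, against 97.0 to 145 CPM across CKO, which gave a log2 fold change of 3.05 (limma adjusted p = 6.54e-04). The receptors Eda2r (2.19, adjusted p = 0.00548) and Tnfrsf10b (2.30, adjusted p = 0.00997) and the mitochondrial death factor Bax (0.88, adjusted p = 0.0157) were the next by limma. Without CKO 1 the call was lost for Tnfrsf10b (adjusted p = 0.0537) and for Bax (0.0663), and for Bax also without CKO 3 (0.0619) or WT 2 (0.0681). The list's count of higher genes was 2 without CKO 1 and 3 without CKO 3 or WT 2. Its genes, led by Bax, summed to 669.7, 635 and 453 CPM across WT, against 1156, 1249 and 1103 CPM in CKO. Bbc3, which encodes the death factor Puma, was among those that did not pass, with a log2 fold change of -0.25 (limma adjusted p = 0.759).

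Of 28 tested targets in repair, metabolism and signalling, 9 were higher and none lower by limma, and the list's median log2 fold change was 0.94 (1 was lower at an unadjusted p under 0.05, and 0 by edgeR, 20 tested, or DESeq2, 26 tested). The count of higher genes was 5 without CKO 3, WT 1 or WT 2. The list, led by Gpx1, summed to 1224, 1283 and 1002 CPM across WT, against 3978, 1981 and 3924 CPM across CKO. CKO 2 stood well below the other CKO libraries here, and above each WT library. Gpx1, a peroxidase, had a log2 fold change of 1.81 (limma adjusted p = 0.00330), and Gtse1, a microtubule protein that acts on p53, 2.17 (limma adjusted p = 0.00508). Ccnd1, cyclin D1, had a log2 fold change of 1.30 (limma adjusted p = 0.00505) and was also the only 1 of 19 pocket proteins, cyclins, kinases and DREAM subunits that passed. The nucleotide repair genes Ddb2 and Xpc, also known as p53 targets, had log2 fold changes of -0.65 (limma adjusted p = 0.340) and -0.57 (limma adjusted p = 0.485).

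Of 19 tested regulators of p53, among them Mdm4, Atm, Chek2, Ep300 and Usp7, none passed in either direction by limma, also at an unadjusted p under 0.05, by edgeR (10 tested) or by DESeq2 (16 tested), and their median log2 fold change was -0.04 (-0.13 to 0.04 with 1 library left out). Mdm4, the partner of Mdm2, stood at 18.1, 24.8 and 27.9 CPM across WT, against 16.5, 25.3 and 16.5 CPM in CKO, with overlap. Cdkn2a and Ppm1d, a regulator each of Mdm2 and of p53 phosphorylation, lay under 1 CPM on average, with at most 2.17 CPM in a library, and were not tested.

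Genes that p21 is known to repress through the DREAM complex encode the machinery of DNA replication and mitosis. Of 40 tested, none was lower by limma (0 also at an unadjusted p under 0.05, by edgeR, 35 tested, and by DESeq2, 39 tested) and 1, Rrm2, was higher, and the list's median log2 fold change was 0.16. Their summed level was 1588, 1661 and 1537 CPM for WT 1, 2 and 3, against 1734, 3183 and 1706 CPM in CKO 1, 2 and 3. CKO 2 thus stood far above the other 5 libraries, while it had the lowest Cdkn1a of CKO. Without CKO 2, an alternative added after seeing the data, 2 of the 40 were lower (Ccna2 and Mki67, named after their values were seen) and 1 was higher (Rrm2), and the median log2 fold change was -0.19. The median was 0.33 without CKO 1, 0.30 without CKO 3 and 0.08 without WT 3. Rrm2, a subunit of ribonucleotide reductase, stood at 151, 141 and 114 CPM across WT, against 336, 617 and 329 CPM across CKO, which gave a log2 fold change of 1.6 (SE 0.24, limma adjusted p = 0.00532). Its p53-induced relative Rrm2b had a log2 fold change of -0.35 (limma adjusted p = 0.766).

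**Figure D5:**
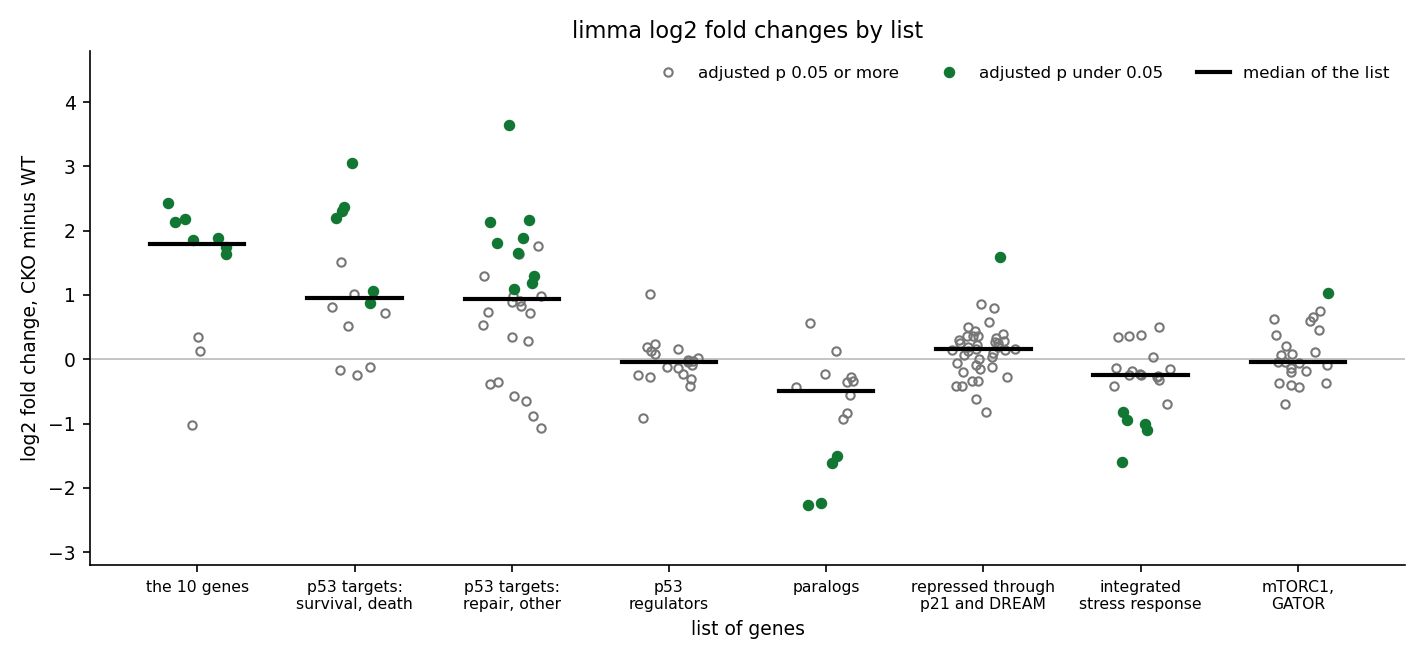
Limma log2 fold changes (CKO minus WT) of the tested genes in each list, green where the adjusted p was under 0.05, with the median of each list as a bar. Medians lie at 1.80 for the 10 genes, 0.95 and 0.94 for the other p53 targets, -0.04 for the p53 regulators and 0.16 for the genes repressed through p21.

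Sesn2 is also a target of ATF4, the factor of the integrated stress response. Of 21 tested genes of that response none was higher by limma (0 also at an unadjusted p under 0.05, by edgeR, 19 tested, and by DESeq2, 20 tested) and 5 were lower, and the list's median log2 fold change was -0.25. Without CKO 2, 6 were lower and the median was -0.47, without CKO 3 the median was -0.12, and 3 were lower without CKO 1 and 1 without WT 1 or without WT 2. The 4 with the smallest adjusted p were Trib3 (log2 fold change -1.6, limma adjusted p = 0.00373), Mthfd2 (-0.82, 0.0101), Chac1 (-0.95, 0.0130) and Nupr1 (-1.10, 0.0212). Trib3, a pseudokinase, held in each alternative run. The others lost their call without WT 1 or WT 2, with adjusted p of 0.0568 and 0.0510 for Mthfd2, 0.0755 and 0.0797 for Chac1 and 0.0635 and 0.0867 for Nupr1. Chac1 also lost it without CKO 1 (0.0663), and Nupr1 without WT 3 (0.0548). Of 23 tested genes of mTORC1 and its GATOR regulators 1 was higher, Prkaa1, a catalytic subunit of the AMP-activated kinase (log2 fold change 1.03, limma adjusted p = 0.0421), and its call held in only 7 of 13 alternatives, with adjusted p of 0.145 by DESeq2, 0.143 without WT 1, 0.139 without WT 2, 0.1596 without CKO 1 and 0.130 without CKO 3. Without CKO 2 there were 2, Prkaa1 and Castor1, an arginine sensor of mTORC1 that was named after its value was seen (log2 fold change 0.83, adjusted p = 0.0235).

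Of 16 tested markers of growth plate chondrocytes 9 were lower and 1 was higher by limma, and the summed level of the list was 26651, 27731 and 34562 CPM for WT 1, 2 and 3, against 6822, 6944 and 6707 CPM in CKO 1, 2 and 3. The most abundant was Cnmd, Ihh was at 0 in each library but WT 3 and CKO 2, and Col2a1 itself was at 2720.2, 3133 and 3944 CPM across WT, against 1411, 1950.2 and 1427 CPM in CKO, so the labelled tissue was seen in each library. In bulk RNA, fewer cells of a type and less RNA per cell cannot be told apart. Of 9 tested bone markers 1 was higher and 1 lower, and the list summed to 1947, 2157 and 5209 CPM across WT, against 12468, 12429 and 13508 CPM in CKO, most of it from Spp1 (osteopontin, 1037, 1095 and 3769 CPM across WT, against 11114, 11877 and 12045 CPM in CKO). Without CKO 2, 3 bone markers were higher (Spp1, Ibsp and Bglap) and 1 lower, and the list's median log2 fold change was 0.74, against 0.46 with all libraries, while none was lower without CKO 3 or without WT 2. CKO 2 stood apart in other bone genes, with Ibsp at 83.0 CPM there against 708 and 808 CPM in CKO 1 and CKO 3, and Phex had a single read in all. Of 7 tested fibroblast and tendon markers 1, Dcn, was lower, and the list, led by Col3a1, summed to 3275, 3733 and 5288 CPM across WT, against 2539, 1265 and 2509 CPM across CKO. The part of any change in cell types in the values of the 10 genes was not tested.

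Btg2 and Plk2 also answer quickly to growth signals, and Btg2 is in a list of immediate early genes. Of 15 tested, 4 were higher (Btg2, Ier3, Fos and Junb, the last 3 named after their values were seen) and none lower by limma (0 also at an unadjusted p under 0.05, by edgeR, 12 tested, and by DESeq2, 13 tested), and the list's median log2 fold change was 0.88. The count of higher genes was 3, with Junb lost, without CKO 1, CKO 3 or WT 2, and 5 without CKO 2 or WT 3. The list, led by Myc, summed to 399, 396 and 322 CPM across WT, against 631, 733 and 556 CPM in CKO, and its part in the values of Btg2 and Plk2 was not tested.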

How the data were processed

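The table the authors deposited holds CPM by gene and library, from stranded poly(A) libraries. The submitters' processing notes name cutadapt 2.5, HISAT2 and featureCounts 1.6.3, and the genome build and annotation are not given in the sources used here. In each of the 6 libraries 100% of the values were whole multiples of 1 read within 0.001 reads, so reads were recovered (1 read was 0.688 to 0.867 CPM). The main test was limma 3.58.1 in R 4.3.3 on log2(CPM + 1), with a mean-variance trend, for genes that averaged 1 CPM or more, and Benjamini-Hochberg adjustment over the 12155 genes. On recovered reads, edgeR 4.0.16 (quasi-likelihood) and DESeq2 1.42.0 were alternatives. The scripts were tested on simulated data. Positions and exon lengths came from GENCODE M21 (GRCm38), and copies were sought with BLAST 2.17.0.

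Members and lists were chosen with earlier results of these data known. Named were the 10 members, Hnrnpk, up to 4 genes per pathway list with the smallest adjusted p that passed, the most abundant gene of each marker list, and the 5 genes nearest in profile to Cdkn1a and to Mdm2. Of these, 1 is not reported here. Bbc3, Ddb2, Xpc, Rrm2b, Mdm4, the regulators that were listed by name and the other markers named were chosen after their values were seen.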

Additional observations from a re-analysis of the deposited data

How the results depend on the processing

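Calls of Mdm2, Cdkn1a, Ccng1, Psrc1 and Btg2 held in all 13 alternatives, which were a pseudocount of 0.1, no filter, a replicate block, TMM scaling, edgeR, DESeq2, a term for Y-linked reads added after seeing the data, and each library left out. Plk2 held in 12 and Trp53inp1 in 10. Trp53 and Sesn1 passed in none (adjusted p 0.274 to 0.627 and 0.0753 to 0.316). Sesn2 reversed to -0.10 without WT 3 and lay between -0.10 and 0.28 with 1 library left out.

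With 1 library left out, genes called higher numbered 122 to 658 and lower 76 to 560, against 387 and 316, and members called higher numbered 5 to 7. Members lower by the fold criterion numbered 0 to 1. By edgeR, which tested 7704 genes, 380.0 met the fold criterion upward, against 644. Causes of these changes were not tested.

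Correlations of deviations from the group means were 0.04, -0.13 and -0.10 for libraries of the same replicate number. For different numbers the correlations ran from -0.12 to 0.16. No pairing by number was seen, but with 3 libraries per group these values cannot exclude one. A pairing by litter, which the labels do not name, was not tested. With the replicate block 225 genes were called higher and 160.0 lower, the members called numbered 7, and adjusted p was 0.105 for Prkaa1 and 0.0623 for Sesn3.

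Depth limits the rare genes: 3 reads stand for 2.06 to 2.60 CPM, so changes in Trp53inp1, Cdkn1b and Sesn3 rest on few reads. With 3 libraries per group there is no exact permutation p under 0.1. No scaling moved the median of all genes by 0.1. Gene totals do not separate isoforms, protein levels or cell types.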

Other observations

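Lists for cells other than chondrocytes and bone gave few calls. Of 9 tested skeletal muscle markers none passed by limma in either direction (1 was higher and 0 lower at an unadjusted p under 0.05, and 0 passed by edgeR, 6 tested, or DESeq2, 7 tested; without WT 3, 1, Tnnt3, was higher), and the list, led by Myog, summed to 79.7, 51.0 and 239.9 CPM for WT 1, 2 and 3, against 119.7, 304 and 119.6 CPM across CKO 1, 2 and 3. Myog, a factor of muscle precursors, was at 179 CPM across CKO 2 and at 34.6 CPM or less in each other library. Of 3 tested epidermis markers none passed by limma (1 was higher at an unadjusted p under 0.05, 0 by edgeR, 2 tested, or DESeq2, 3 tested), and the list, led by Krt10, summed to 21.1 to 58.5 CPM. Of 2 tested endothelium markers none passed by limma, at an unadjusted p under 0.05, by edgeR (1 tested) or by DESeq2 (2 tested), and the list, led by Egfl7, summed to 13.05 to 22.5 CPM.

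Of 9 tested markers of blood and macrophages 1 was higher by limma, the lysosomal protein Cd68, at 8.70, 6.75 and 11.8 CPM across WT, against 76.3, 46.9 and 76.3 CPM across CKO (log2 fold change 2.74, limma adjusted p = 0.00114). The most abundant of them, Lyz2, was at 51.5, 54.8 and 270.3 CPM across WT, against 111, 105 and 115 CPM across CKO, and Adgre1, Csf1r and C1qa, which mark macrophages, stayed at 8.66 CPM or less in each library. The log2 fold changes of all 9 were positive, with a median of 0.57 (0.43 to 1.04 with 1 library left out). The list summed to 152, 165 and 384 CPM across WT, against 294, 314 and 315 CPM across CKO, with overlap. Without WT 3, 3 of the 9 were higher (Cd68, Lyz2 and Acp5). Prg4, which encodes the lubricant of joint surfaces, was the 1 chondrocyte marker that was higher, at 5.80, 3.0 and 4.22 CPM across WT, against 59.8, 30.3 and 52.0 CPM across CKO (log2 fold change 3.16, limma adjusted p = 0.00123).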
